A study of Mus musculus with 8 samples.

Results

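The respiratory chain genes of a murine spleen stromal cell line were described in a table of mean expression. The members were all genes of the table whose symbols name a numbered Nduf gene, Sdha to Sdhd, a Uqcr gene, Cyc1, Cycs, Cox4 to Cox8, a gene of the Atp5 series, or a gene of the mitochondrial genome (symbols with the prefix mt-). Assembly factors of the Ndufaf series were not taken. The rule took 88 of 12589 genes. Of these, 78 are encoded in the nucleus and 10 in the mitochondrial genome. The nuclear members are 37 genes of complex I, 4 of complex II, 9 of complex III, 11 of complex IV, 16 of complex V and Cycs, the electron carrier. The mitochondrial members are 7 protein genes, 2 ribosomal RNA genes and 1 transfer RNA gene.

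The cells were mSSC-YFP, a line of stromal cells from mouse spleen that carries yellow fluorescent protein. According to the labels, 4 samples were treated for 48 h with BMS493, an inhibitor of retinoic acid receptor signaling, and 4 with the vehicle DMSO alone. All samples came from the same line grown in serum-containing medium, with no leukemic cells named in the labels. A single cultured line does not represent the other cells of the spleen.

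Every level below is the authors' mean over both groups together, on a log2 scale. Values of single samples were not analysed here, so a level has no SD and no n of its own, the depth of each library is unknown, and no test was possible. The question of the study, whether blocking retinoic acid signaling changes stromal gene expression, was not addressed for these genes, because the only values that bear on it are the authors' own comparison. What is described is which subunits of the chain these cells expressed, and at what level. In bulk RNA, fewer cells that express a gene and less RNA per cell cannot be told apart.

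The respiratory chain sits in the inner mitochondrial membrane. Complex I takes electrons from NADH and complex II takes them from succinate. Both pass them through ubiquinone to complex III, then through cytochrome c to complex IV, which reduces oxygen. Complexes I, III and IV pump protons, and complex V, the ATP synthase, uses the proton gradient to make ATP. Complex II is built from nuclear genes alone, whereas the other complexes combine proteins made from nuclear genes with proteins made inside the organelle from mitochondrial DNA. Many nuclear subunit genes have left processed pseudogenes in the mouse genome, and fragments of mitochondrial DNA have been copied into the nuclear chromosomes. Counting of uniquely mapped reads, which the study used, leaves out reads that match such copies as well as the gene.

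The c subunit of the ATP synthase, the proton-carrying ring protein, is encoded by 3 genes, Atp5g1, Atp5g2 and Atp5g3, whose mature proteins are the same. The last 120 coding bases of their transcripts, from GENCODE M21, are given 5′ to 3′, and capitals mark the bases that differ from Atp5g1. They are shown because the levels of these genes differed by more than those of Cox7a2 and Cox7a2l. That pair was the only other listed family with rows for more than a single gene.
Atp5g1: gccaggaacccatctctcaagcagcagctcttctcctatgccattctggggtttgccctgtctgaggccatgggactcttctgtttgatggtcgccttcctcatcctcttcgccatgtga
Atp5g2: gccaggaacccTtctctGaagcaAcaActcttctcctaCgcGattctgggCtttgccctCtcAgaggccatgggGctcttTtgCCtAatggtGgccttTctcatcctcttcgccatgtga
Atp5g3: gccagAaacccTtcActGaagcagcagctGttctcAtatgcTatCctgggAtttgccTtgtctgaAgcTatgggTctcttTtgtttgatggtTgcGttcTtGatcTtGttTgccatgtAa
Over this stretch Atp5g2 differed from Atp5g1 at 16 of 120 bases (86.7% the same) and Atp5g3 at 22 (81.7% the same). The differences are spread along the stretch. The copies that share long exact runs with Atp5g1 and Atp5g2 are their pseudogenes, described below.

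The members as a whole were high in the table. A level in log2 was divided by the length of the longest transcript (in kb, as a subtraction on the log2 scale), so that genes of different length could be compared. The median of the members was 6.06 on this log2 per kb scale, against 3.28 for the 12386 genes with a length. This put the median member at percentile 91.9. Of the 88 members, 79 (89.8%) lay above the median of all genes, 51 (58%) reached percentile 90, and 9 (10.2%) lay under percentile 50. Without the length correction the median member was at percentile 75.7. The difference between the percentiles goes with transcript length, since the longest transcript had a median of 1186 nt in the nuclear members and 3333 nt in all genes. After each mean was returned to a linear scale, the members made up 1.70% of the sum over all genes. The nuclear members held 0.912% and the mitochondrial members 0.787%. The mitochondrial share covers only 7 of the 13 mitochondrial protein genes, since no row was found for the others (below).

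**Figure D1:**
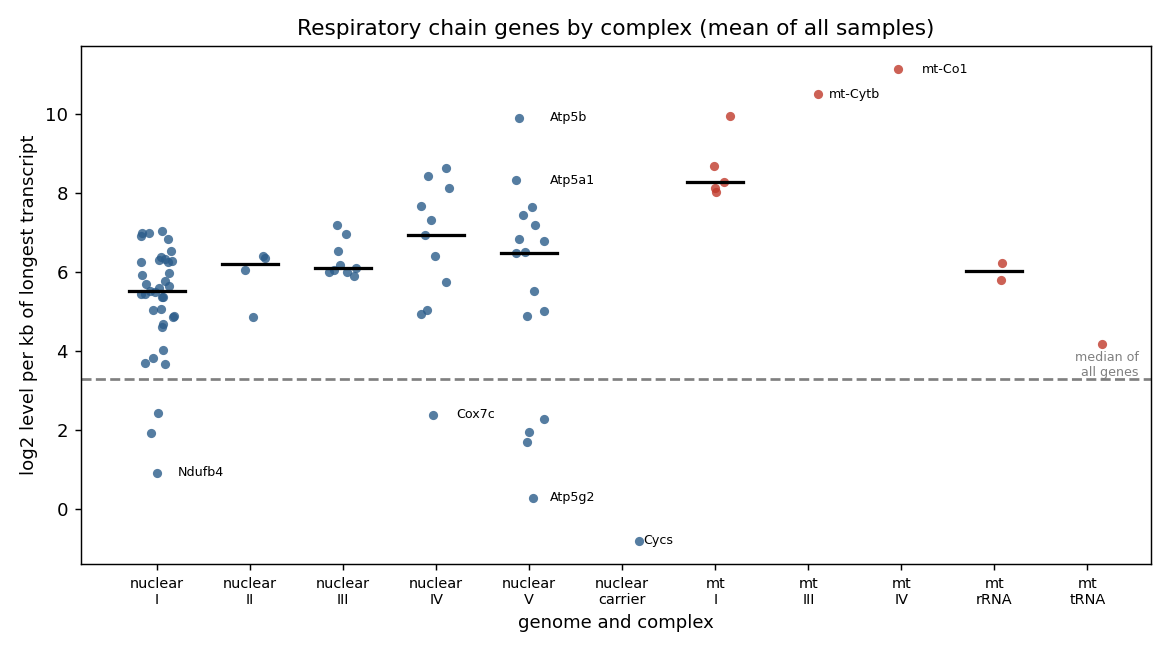
Log2 level per kb of the longest transcript (vertical axis) for each respiratory chain gene, grouped by genome and complex. Each point is 1 gene (mean of all samples), black bars are group medians, and the dashed line is the median of all genes (3.28). All mitochondrial points lie above the line, and the 9 points under it are nuclear, with Cycs lowest at -0.81.

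Complex I had the lowest median of the nuclear complexes (5.53 log2 per kb, range 0.92 to 7.03), with 14 of its 37 genes at percentile 90 or above. On the mean length of coding transcripts, complexes I and II both had 6.29. The 7 nuclear genes of its core, which holds the flavin and the iron-sulfur clusters, had a median of 5.65 log2 per kb. The 30 accessory genes had 5.52. Before division by length the medians of the log2 level were 6.29 for the core and 5.58 for the accessory genes. This split was chosen after the values were seen. The highest were both accessory subunits, Ndufa7 at 7.03 log2 per kb and Ndufa2 at 7.01. Ndufa4, named as a complex I subunit but later assigned to complex IV, followed at 6.995 log2 per kb. The lowest was the accessory subunit Ndufb4 at 0.92 log2 per kb (chromosome 16, positions 37647170 to 37654453 of GRCm38), with a level of only 0.88 before division by length. Ndufb2, also an accessory subunit, was second lowest at 1.92 log2 per kb. Its longest annotated transcript has 4371 nt, and with the mean length of its coding transcripts its value was 2.77. Ndufab1, the mitochondrial acyl carrier protein, stood at 2.44 log2 per kb and was the third gene of the complex under percentile 50.

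All 4 genes of complex II were expressed well above the median of all genes, and their median was 6.21 log2 per kb. Sdhd, one of the membrane anchors, had 6.41 log2 per kb. Sdha, the flavoprotein that oxidises succinate, had 6.36, and Sdhb, the iron-sulfur subunit, had 6.06. On the longest transcript these 3 genes lay within 0.36 of each other, whereas the other anchor, Sdhc, was lower at 4.87 log2 per kb. The longest transcript of Sdhc has 3171 nt, and on the mean length of its coding transcripts its value was 6.02. On that length Sdhd had 6.41, Sdha 7.04 and Sdhb 6.16. With merged exons the values were 6.41 for Sdhd, 5.85 for Sdha, 5.19 for Sdhb and 4.84 for Sdhc, so the closeness depends on the length used.

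Complex III was the most even on this scale. All 9 genes reached percentile 90, and their values ran from 5.90 to 7.20 log2 per kb with a median of 6.11. The small subunits Uqcr10 (7.20 log2 per kb) and Uqcrh (6.96) were highest. Cyc1, the heme-carrying cytochrome c1, was lowest at 5.90 log2 per kb, just under the core protein Uqcrc2 at 6.001. The SD over the 9 genes was 0.47 log2 per kb. It was 0.72 over the genes of complex II, 1.42 over complex I, 1.88 over complex IV and 2.70 over complex V. On the mean length of coding transcripts complex III was not more even than complex II. Its values ran from 6.14 to 7.79, and those of complex II from 6.02 to 7.04. These are spreads between genes, not between samples.

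Complex IV had the highest nuclear median, 6.94 log2 per kb, except that with the windows found in no other gene as the length (explained below) it had 7.29 and complex V 7.30. That length comes from the longest transcript with a complete coding sequence, so it can change where no window is shared. Atp5e of complex V, with no window elsewhere, had 5.03 log2 per kb on its longest transcript (1697 nt) and 7.42 on its 322 windows. Cox4i1, the largest nuclear subunit, led complex IV at 8.65 log2 per kb (chromosome 8, positions 120668222 to 120674207 of GRCm38), followed by Cox8a at 8.45 log2 per kb. At the other end, Cox7c was at 2.39 log2 per kb and was the only gene of complex IV under percentile 50. Cox6c was second lowest at 4.94 log2 per kb, but its longest transcript has 3038 nt, and on the mean length of coding transcripts it reached 7.24. Cox7c stayed low on that scale, at 2.73.

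Complex V was the most uneven of the complexes, from 0.29 to 9.91 log2 per kb around a median of 6.50. Atp5b, the catalytic beta subunit, was the highest nuclear member of the whole chain, at 9.91 log2 per kb. Atp5a1, the alpha subunit, followed at 8.33. Together, the 5 genes of the F1 head had a median of 7.45 log2 per kb, and the 9 other subunit genes 6.48, a split made after the values were seen. In complex V, 4 genes lay under percentile 50, and of these Atp5g1 and Atp5g2 are counted in the 9 other subunit genes. Atp5g2 had 0.29 log2 per kb, Atp5s 1.69, Atp5g1 1.96 and Atp5sl 2.29. Atp5s and Atp5sl carry the name of the enzyme but are not subunits of it.

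Cycs, somatic cytochrome c, was the lowest of all 88 members. Its log2 level was 0.84, or -0.81 per kb, at percentile 4.14 of all genes with a length. Cyc1 and the other genes of complex III, which hand electrons to cytochrome c, were 6.71 or more log2 units above it per kb.

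The mitochondrial protein genes were higher than most nuclear ones. Their median was 2.70 log2 units per kb above that of the nuclear members, and it was above 0 under all 13 alternative settings tried for this difference in the chain or in a single complex. mt-Co1, the catalytic subunit of complex IV, was highest at 11.14 log2 per kb (mitochondrial genome, positions 5328 to 6872). mt-Cytb, the cytochrome b of complex III, had 10.51 log2 per kb. Of the complex I subunits, mt-Nd1 had 9.96 log2 per kb, mt-Nd2 8.70, mt-Nd4 8.29, mt-Nd5 8.13 and mt-Nd6 8.04. mt-Nd6, which is the only protein gene transcribed from the opposite strand, was the lowest of the 7, though only 0.09 under mt-Nd5. With windows found in no other gene as the length, mt-Nd4 had 9.75 log2 per kb, between mt-Nd1 (10.1) and mt-Nd2 (8.89). On that length mt-Nd6 had 8.34 and stood above mt-Nd5 at 8.21. Neither of these genes had a window elsewhere. Their swap comes from counting windows in place of bases, 420 for 519 nt in mt-Nd6 and 1725 for 1824 nt in mt-Nd5. Within a complex, the mitochondrial median exceeded the nuclear median by 2.76 log2 units per kb in complex I, by 4.40 in complex III and by 4.20 in complex IV, the last 2 resting on 1 mitochondrial gene each.

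The mitochondrial ribosomal RNAs were at 6.24 (mt-Rnr2) and 5.80 (mt-Rnr1) log2 per kb, under all 7 protein genes. The libraries were made from mRNA according to the methods, and the share of ribosomal RNA in the cells cannot be read from them. mt-Tp, the proline transfer RNA, had a log2 level of 0.28. Its gene has 67 nt, less than a read of the study, so that its 4.18 log2 per kb rests on a very small length.

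For the other 6 of the 13 mitochondrial protein genes, mt-Co2, mt-Atp8, mt-Atp6, mt-Co3, mt-Nd3 and mt-Nd4l, no row was found in the table. To set this beside the sequence, every 100-base window of each gene was looked up in the transcripts of all other genes of GENCODE M21 that do not overlap it. Of the windows of mt-Co3, 99.9% were found elsewhere. The share was 99.5% for mt-Co2 and mt-Atp6, 98.5% for mt-Nd4l and 97.6% for mt-Nd3. Thus 5 of the 6 genes with no row had more than 97% of their windows in another gene. For mt-Atp8, none of its 105 windows lay in an annotated transcript elsewhere. Sequence outside annotated transcripts was not searched, so a nuclear copy of mt-Atp8 that is not annotated would not be seen. Among the 7 protein genes with a row, the share was 60.8% for mt-Nd4, 30.8% for mt-Co1, 3.19% for mt-Nd2 and 0 for the rest. In genome order, the genes with high shares form 1 run from mt-Co1 to mt-Nd4, in which only mt-Atp8 has no annotated copy.

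**Figure D2:**
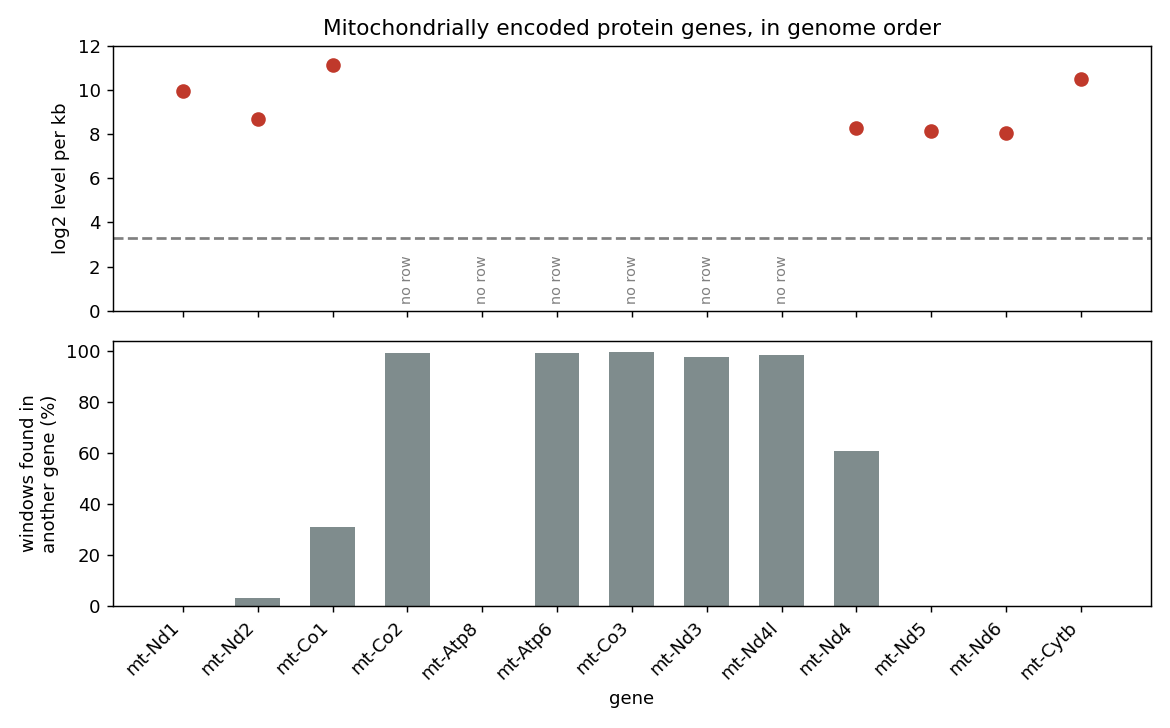
Mitochondrial protein genes in genome order, with the log2 level per kb of the authors' mean above (points, dashed line at the median of all genes) and the percent of 100-base windows found in another gene below (bars). The 5 genes with shares of 97.6% or more have no row in the table, and neither has mt-Atp8, whose share is 0. Only annotated transcripts were searched.

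Most of the matching sequence lies in 1 nuclear segment. For 7 genes, mt-Co1, mt-Co2, mt-Atp6, mt-Co3, mt-Nd3, mt-Nd4l and mt-Nd4, the gene with the most shared windows was an unprocessed pseudogene in a stretch of 4663 nt on chromosome 1 (positions 24611535 to 24616197 of GRCm38). Gm29216 holds part of mt-Co1, and Gm28439 holds part of mt-Nd4. mt-Co1 and mt-Co2 each also matched 1 further gene, which is not on chromosome 1. None of the 8 nuclear copies named for the mitochondrial genes, with Gm13339 for mt-Nd2 on chromosome 2, had a row in the table. Whether reads were lost to the copies was not tested, since reads were not analysed here.

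The same lookup was made for the nuclear members. At least 1 window was found elsewhere for 17 of 78 genes, and their median was 4.86 log2 per kb. The 61 genes with no such window had a median of 6.11. With windows found in no other gene as the length, the 2 medians were 5.34 and 6.49. Of the 9 members under percentile 50, 6 had a window elsewhere (Cycs, Atp5g2, Ndufb4, Cox7c, Ndufab1 and Atp5g1), against 11 of the 69 other nuclear members. Counting instead the genes with 15% or more of their windows elsewhere gave 4 of the 9 low members. Over all 78 nuclear members the count was 9, with these 4 included. The relation was not uniform, since Atp5h had 29.5% of its windows elsewhere and 6.52 log2 per kb, whereas Ndufb2, Atp5s and Atp5sl were low with none. These genes were picked out after their values were seen, and the part of the copies in their levels was not tested.

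**Figure D3:**
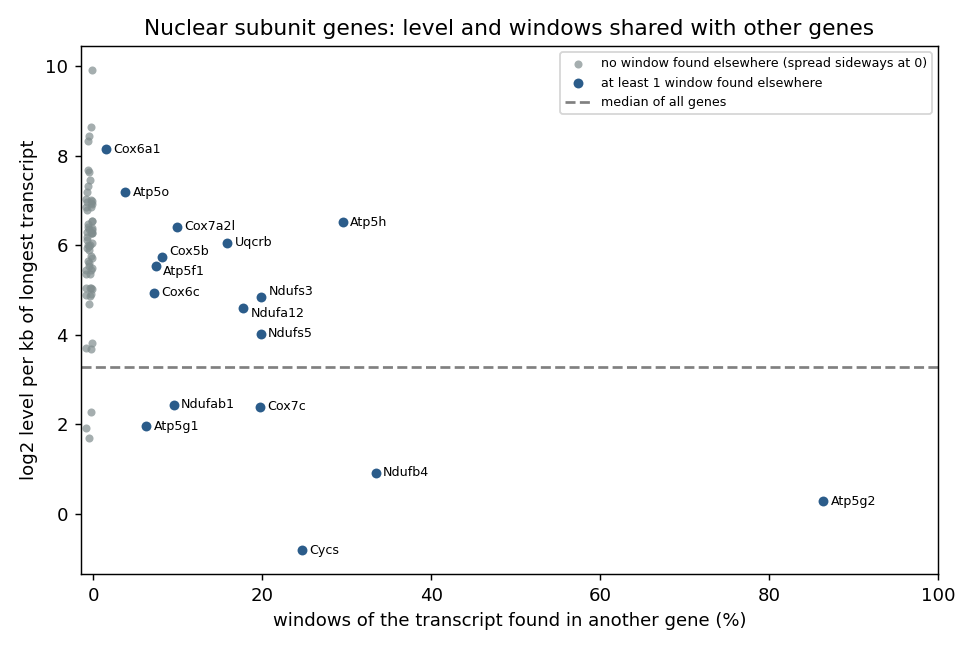
Log2 level per kb of each nuclear member (vertical axis) against the percent of its 100-base windows found in another gene (horizontal axis), where grey points at 0 are spread sideways and the dashed line is the median of all genes. The named genes at 15% or more include 4 low ones (Cycs, Atp5g2, Ndufb4 and Cox7c) and others, such as Atp5h at 29.5%, that are well above the line.

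Some copies had rows of their own. The copy with the most shared windows had a row for 12 of the 17 nuclear genes, and in 3 of these 12 the log2 level of the copy, before division by length, stood above that of its member. Per kb, the copy was above its member in 6 of the 12. Gm10053, which GENCODE lists as a protein-coding gene on chromosome 19, had a log2 level of 2.53, against 0.84 for Cycs. It holds 747 of the 3024 windows of Cycs. The processed pseudogene Gm10039, on chromosome 11, had a log2 level of 5.13, against 4.20 for Atp5g1. BC002163 had 3.62, close to the 3.47 of Ndufs5, a small subunit of complex I. Levels of these genes and of their copies are uncertain where reads could have been divided between them. No row was found for Atp5l, the g subunit of ATP synthase, of whose windows 61.3% occur elsewhere, while its copy Gm10221 had a log2 level of 5.12. For Ndufb4, Cox7c and Atp5g2 the copy with the most shared windows had no row.

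Subunit paralogues were represented by the forms found in most tissues. Cox4i1, Cox6a1 (8.15 log2 per kb), Cox6b1 (7.68), Cox7a2 (7.33), Cox7b (6.94) and Cox8a had rows. No row was found for their paralogues Cox4i2, Cox6a2, Cox6b2, Cox7a1, Cox7b2, Cox8b or Cox8c, which are known from lung, striated muscle or testis. None of these 7 had a window in another gene. Cox7a2l, a relative of Cox7a2 that helps to join complexes III and IV, was at 6.42 log2 per kb. Ndufa4 had a row and its relative Ndufa4l2, a gene known to be induced by low oxygen, had none. Nor did Cyct, the cytochrome c of testis.

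The listed families with more than 1 row were the c subunit and the pair of Cox7a2 and Cox7a2l. That pair differed by 0.91 log2 per kb, and the 3 genes of the c subunit by more. Atp5g3 had 7.65 log2 per kb, 5.69 above Atp5g1 and 7.36 above Atp5g2. The longest transcript of Atp5g1 has 4715 nt, and with merged exons the gap between Atp5g3 and Atp5g1 became 4.41. None of the windows of Atp5g3 occurred elsewhere. In Atp5g2, 546 of 632 windows (86.4%) were also found in the pseudogene Gm10175 on chromosome 7, and in Atp5g1 the share was 6.22%. With windows found in no other gene as the length, Atp5g3 had 8.11 log2 per kb, Atp5g2 3.42 and Atp5g1 2.08. Atp5g3 stayed highest, but Atp5g2 then stood above Atp5g1. The order of those 2 genes therefore depends on the length used, and how far the copies enter the levels was not tested.

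Nuclear genes of the chain are known to be read by NRF1, the ETS-family factor GABP, YY1 and SP1, which bind near their starts. Promoters, from 250 bases before to 50 after the start, were available from RefSeq for 66 of the 78 nuclear members, 72 promoters in all (GRCm38.p6). The NRF1 core GCATGCGC, on either strand, was in 10 of the 72 (13.9%, exact Clopper-Pearson 95% interval 6.87 to 24.1). It was in 5.31% of the promoters of all genes of the table and in 2.71% of all promoters. The YY1 core AAGATGGC was in 16.7% (8.92 to 27.3), against 4.47% and 2.75%. The 12 promoters with the YY1 core include overlapping promoters of Atp5sl, not a subunit gene, that hold the same site, so this site is counted more than once. The ETS core CCGGAAG was in 20.8%, against 17.7% and 8.86%. The SP1 core GGGCGG went the other way, in 40.3% of the members' promoters (28.9 to 52.5) against 63.5% for the genes of the table and 35.7% for all promoters. None of the motifs is part of another, although the NRF1 core on both strands can overlap itself. The intervals cover counting error only, several genes have more than 1 promoter, and a match of letters is not a bound site.

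In 7 of the 10 members with the NRF1 core, the core and 20 bases on each side lie wholly before the start. Of these, 5 are shown, 1 each from complexes I, II, IV and V and the carrier, and Atp5k and Ndufa11 are not. They are printed 5′ to 3′ in the direction of the gene, with the core in capitals (both strands merged where they overlap), to show the same core in genes of different complexes and of very different level.
Cycs (chr6:50566602-50566649, minus strand): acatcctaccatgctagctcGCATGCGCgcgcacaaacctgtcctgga
Sdhb (chr4:140961197-140961244, plus strand): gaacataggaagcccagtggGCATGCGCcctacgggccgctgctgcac
Ndufa6 (chr15:82354347-82354394, minus strand): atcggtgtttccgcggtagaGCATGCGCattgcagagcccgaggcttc
Cox6a1 (chr5:115349093-115349140, minus strand): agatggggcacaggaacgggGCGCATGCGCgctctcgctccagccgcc
Atp5g2 (chr15:102671062-102671109, minus strand): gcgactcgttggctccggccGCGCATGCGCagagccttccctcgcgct
The core began 60 bases before the start in Cycs, 54 in Sdhb, 83 in Ndufa6, 162 in Cox6a1 and 42 in Atp5g2. Of these, Cox6a1 had 8.15 log2 per kb and Cycs, the lowest member, -0.81. The highest member with a promoter and no such core had 9.91 log2 per kb. Over all members with a promoter, the 10 genes with the core had a median of 6.02 log2 per kb and the 56 without it 5.76.

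The genes that build and regulate the chain had lower medians than its subunits. Of 48 assembly factors, which insert cofactors and join subunits, 44 had a row, and their median was 3.19 log2 per kb (percentile 48.2). Uqcc2, a complex III factor listed as Mnf1, was highest at 6.45 log2 per kb. The complex IV factors Coa3 (5.35), Cox14 (5.22) and Coa5 (4.50) and the complex V factor Tmem70 (4.86) came next. Lyrm7, which brings the iron-sulfur protein to complex III, was lowest at -0.28 log2 per kb, with the complex II factor Sdhaf1 at 0.26 and the complex V factor Atpaf1 at 0.31.

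Of 23 regulators of nuclear subunit genes and of mitochondrial DNA, 22 had a row, with a median of 3.12 log2 per kb (percentile 46.8). Pprc1, a coactivator of the PGC-1 family, was highest at 5.03 log2 per kb. Lrpprc, which stabilises mitochondrial mRNA, had 4.27, Sp1 4.22, Gabpa, the DNA-binding subunit of GABP, 4.05 and Tfam, which packages mitochondrial DNA, 3.71. The other members of the coactivator family were at the opposite end. Ppargc1b was lowest at -1.79 log2 per kb, and no row was found for Ppargc1a. Mterf1a, a termination factor listed as Mterf, had -0.22 and Polg2, the accessory subunit of the mitochondrial DNA polymerase, 0.66 log2 per kb.

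**Figure D4:**
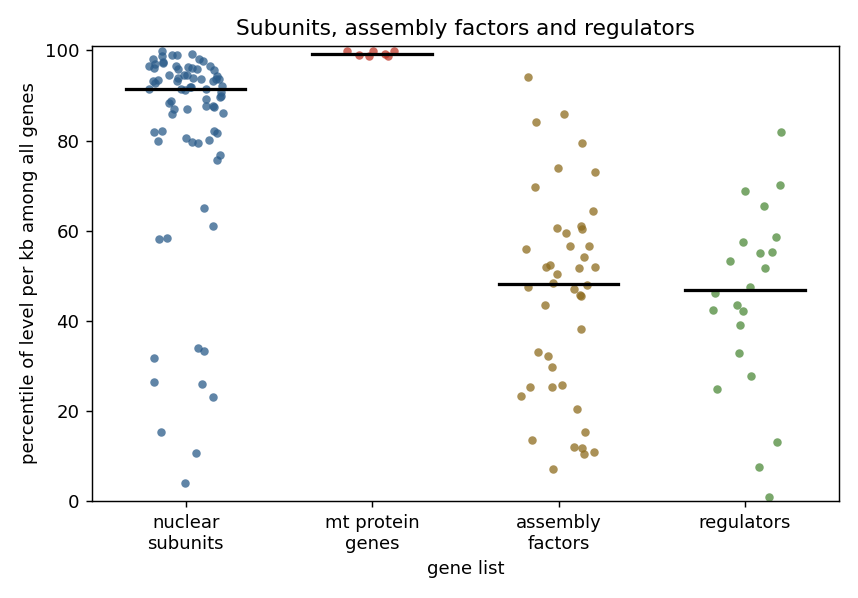
Percentile of the level per kb among all genes with a length (vertical axis) for nuclear members, mitochondrial protein genes, assembly factors and regulators. Each point is 1 gene (mean of all samples) and black bars are medians, which are at 91.4 for the nuclear members, 99.2 for the mitochondrial protein genes, 48.2 for the assembly factors and 46.8 for the regulators.

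The label of the cells was set beside marker genes. Of 15 stromal markers 14 had a row, with log2 levels from 3.58 (Nkx2-5) to 13.29 (Col1a1), and Tcf21 had none. Of the spleen stromal factors, Tlx1 was at percentile 46.9 and Nkx2-5 at percentile 27.7 of the levels of all genes, and per kb Pdgfra was at percentile 34.6. No row was found for any of 5 B cell, 4 T cell or 5 leukocyte and macrophage markers. Of 4 endothelial markers 2 had a row (log2 levels up to 2.83), and of 4 epithelial markers 3 had one, with Cdh1 at 8.03 and the other two at 1.55 or less. The part of other cells in the levels of the respiratory chain genes was not tested.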

How the data were processed

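RNA of 8 samples, 4 with BMS493 and 4 with DMSO, was sequenced. According to the methods and the submitters' processing notes, the authors checked single-end reads of stranded mRNA libraries with FastQC, aligned them to mm10 (GRCm38) with STAR 2.3.0e, used Rsubread to count reads with a unique position per Ensembl gene, and normalised the counts with a weighted trimmed mean of M-values. The labels' own protocol describes array amplification and qPCR. The authors deposited 1 log2 value per gene, its normalized expression averaged over all samples, written with decimal commas, and whether a count was added before the logarithm is not given in the sources used here. The sum of the means on the linear scale was 989369. The table also holds 4 columns of the authors' comparison (log2 fold change, t, p-value and adjusted p-value), which were not used. It holds 0 columns of single samples, so the planned comparison of BMS493 with DMSO could not be made, and no SD, test or depth per library is given.

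Genes were looked up in GENCODE M21 (GRCm38), 11782 by symbol and 604 through an older RefSeq symbol, which gave a length for 98.4% of the genes. The longest transcript was the main length. Windows of 100 bases came from the longest transcript with a complete coding sequence. Promoters came from RefSeq (GRCm38.p6). Alternatives were the mean length of coding transcripts, merged exons, no length correction, other members, means, a shorter promoter window and a low-level filter. Python 3.11.15 with numpy 2.4.6, pandas 2.3.3, scipy 1.17.1 and matplotlib 3.10.9 was used, and the scripts were tested on simulated data. Members and lists were chosen with earlier results of these data known. Genes named are the 2 highest and 2 lowest nuclear members of each complex per kb, all mitochondrial genes, the listed paralogues, Cycs, Cyc1, Sdha to Sdhd, and the 5 highest and 3 lowest assembly factors and regulators. Ndufab1, Atp5e, Atp5h, Atp5l, Ndufs5, Atp5sl, the genes with the NRF1 core and the pseudogene copies were named after their values were seen.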

Additional observations from a re-analysis of the deposited data

How the results depend on the processing

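A value was taken as moved when it changed by more than 0.5 log2 units (5 percentile points), or for a share of promoters when it left the 95% interval of the main share. Over 17 results, 36 alternative values stayed within this, 14 moved and none changed sign. With the mean length of coding transcripts, medians per kb became 6.29 for complex I, 6.95 for complex III and 7.16 for complex V, and the mitochondrial excess became 2.00 in complex I and 3.56 in complex III. With merged exons, complex II had 5.52, complex V 5.39 and the gap between Atp5g3 and Atp5g1 was 4.41. Without length correction, complex III had 6.64 and the mitochondrial excess in complex IV was 5.04. With a mean in place of a median, complex V had 5.55. With windows found in no other gene as the length, complex III had 6.68 and complex V 7.30. Without mitochondrial genes that overlap another, the excess over the chain was 3.33. The order of complexes II, III and V by median changed between these settings, so no order among them is given. The window length, and the coding length for the mitochondrial excess, were added once the data had been seen. No paired analysis was possible because no values of single samples were analysed here. For the same reason DESeq2, the fit without a filter and leaving out each replicate were not run. Depth per library is unknown.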

Other observations

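Some members share sequence with a gene at the same place. Of the windows of Ndufb6, 28.2% lay in a transcript of an overlapping gene and in no other gene outside the locus. The share was 26.5% for Atp5o, 24% for Ndufa13 and 22.7% for Uqcrc2. Their levels depend on how reads in such stretches were assigned, and this was not tested. Of 87 annotated nuclear genes whose symbols the rule takes, 9 had no row under that symbol. They are Atp5l, Atp5mpl, Cox4i2, Cox6a2, Cox6b2, Cox7a1, Cox7b2, Cox8b and Cox8c. The Cox genes among them were also sought under older symbols, whereas Atp5l and Atp5mpl were not. Atp5mpl, a small subunit of ATP synthase, had none of its 513 windows in another gene. The nuclear members lie on 19 chromosomes, with at most 6 on any 1 of them and 3 on X.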
